A study of Mus musculus with 24 samples.

Results

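The conjugation enzymes described here are the UDP-glucuronosyltransferases (UGT), the cytosolic sulfotransferases (SULT) and the glutathione S-transferases with their membrane-bound relatives (GST and MGST) of the mouse liver. They were taken by gene name from the probes of the array, and a gene was measured if the scanner software placed a probe of it well above background on 6 or more of the 24 arrays. Of 55 such genes on the array 46 were measured, 14 UGT, 11 SULT and 21 GST and MGST genes, among 23966 genes measured in all. A gene with several passing probes was read by its brightest probe. Within these families a gene was kept by detection only, not by the difference between groups. The families themselves were chosen with earlier results of these data known.

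Liver RNA came from 24 C57Bl/6J mice, wild-type males aged 8 weeks and kept on chow, each read on an array of its own. Of these, 6 were fasted for 24 hours, 6 ate chow and drank 20% glucose for 24 hours, 6 ate chow and drank 20% fructose for 24 hours, and 6 ate chow and drank tap water. All animals carried the same wild-type genotype and were killed at ZT16. The study thus asked how the liver responds to a day without food and to a day of either sugar, each set against feeding with water. The 3 comparisons with water share the same 6 control mice, so a high or low control group enters all of them.

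Conjugation makes fat-soluble molecules easier to excrete. UGT enzymes sit in the endoplasmic reticulum and transfer glucuronic acid from UDP-glucuronate to bilirubin, steroids, bile acids and drugs. SULT enzymes in the cytosol transfer sulfate from the donor PAPS to phenols, hormones and bile acids, and GST enzymes couple glutathione to reactive, electron-poor molecules. The genes are known as targets of the xenobiotic receptors CAR and PXR, of the aryl hydrocarbon receptor AHR, and of the oxidative stress factor NRF2, while HNF1 and HNF4 support their expression in hepatocytes.

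The arrays were alike in quality, with 32516 to 36274 probes well above background and correlations of at least 0.985 between arrays of a group. The 7 hepatocyte markers examined, among them Alb and Apoa1, were well above background on all 24 arrays. Levels below are log2 intensities relative to the array's 75th percentile, so a level of 0 is the intensity of that percentile, and a group is described by its lowest, median and highest mouse. A log2 fold change of 1 is a doubling. A gene was called changed at a Benjamini-Hochberg adjusted p under 0.05 over all 23966 genes in limma. Brightness differs between probes for reasons of sequence, so levels are compared between mice and not between genes. In bulk liver, fewer cells of a type and less RNA per cell cannot be told apart.

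Fasting changed most of the measured conjugation enzymes, some upward and more of them downward, and several subfamilies held members of both kinds. In fasted livers 35 of 46 members were called, 13 higher and 22 lower than in livers of mice on water, where 42.6% of all genes were called, 21.7% higher and 20.9% lower. The 9 UGT2 genes, 5 of 7 mu-class Gstm genes and the alpha-class genes Gsta3 and Gsta4 were lower, while most Sult1 genes, Gstt2, Gstt3 and the Ugt3a genes were higher. The median log2 fold change of the 46 members was -0.33, against 0.020 for all genes. At an unadjusted p under 0.05 there were 37 of 46 members, where 48.5% of all genes passed. In 21 of the 46 members no fasted mouse overlapped a mouse on water, as in 24.3% of all genes. Among the 46, 44 were well above background on all 24 arrays, so their measurement did not rest on a single group.

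**Figure D1:**
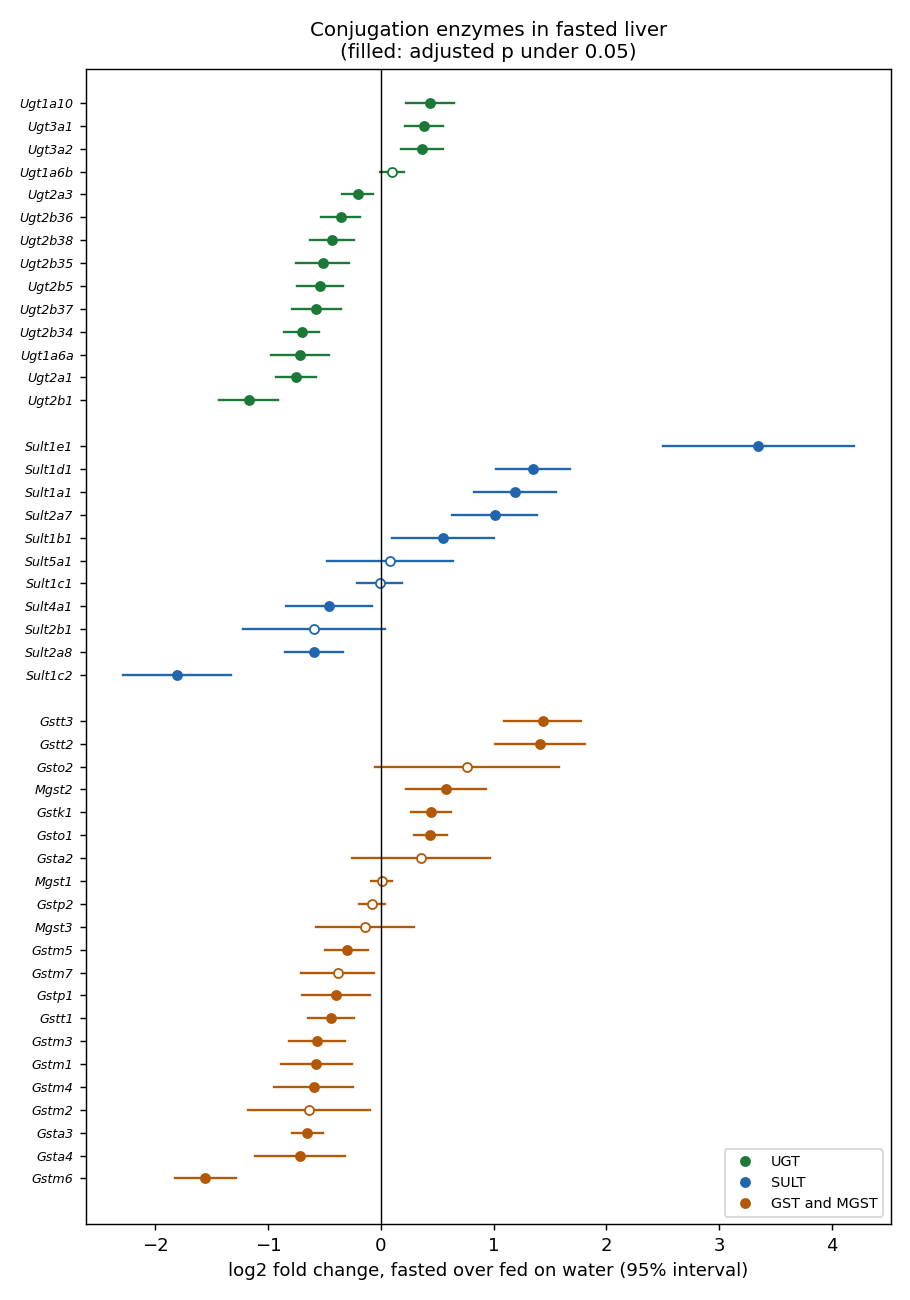
Log2 fold change of the 46 conjugation enzymes in fasted livers over livers of mice on water (x axis, log2 units), grouped by family and ordered by size; points are limma estimates from 6 mice a group, lines are 95% intervals and filled points are called. Sult1e1 lies at 3.35, and the 9 UGT2 genes all lie to the left of 0.

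Among the UGT genes 13 of 14 were called in fasted livers, 3 higher and 10 lower, where 42.6% of all genes were called. The 9 UGT2 genes, which conjugate steroids, bile acids and drugs, were all among the 10. Their probes lie side by side on chromosome 5 (mm9, chr5:87318849-87889527), in the order Ugt2b34, Ugt2b1, Ugt2b35, Ugt2b36, Ugt2b5, Ugt2b37, Ugt2a3, Ugt2b38 and Ugt2a1, over 571 kb. Ugt2b1 changed most, with levels of 3.53, 4.21 and 4.44 in fasted livers against 5.12, 5.27 and 5.46 in livers of mice on water. Every fasted mouse lay below every mouse on water, and the log2 fold change was -1.17 ± 0.13 (SE; n = 6 mice each, limma adjusted p = 8.22e-08), 2.25-fold lower. Ugt2a1, a UGT first known from the olfactory epithelium, lay at 0.79, 0.93 and 0.99 in fasted livers and at 1.43, 1.70 and 1.80 in livers of mice on water. These ranges did not overlap either, with a log2 fold change of -0.75 ± 0.086 (SE; n = 6 mice each, limma adjusted p = 2.28e-07). Ugt2b34 lay at 5.80, 5.95 and 6.14 in fasted livers and at 6.59, 6.65 and 6.72 in livers of mice on water. The mice on water lay close together for this gene and the fasted mice lay apart from them, with a log2 fold change of -0.70 ± 0.073 (SE; n = 6 mice each, limma adjusted p = 5.5e-08). Ugt2b37 lay at 5.02, 5.38 and 5.70 in fasted livers against 5.79, 5.95 and 6.03 on water, again without overlap, with a log2 fold change of -0.57 ± 0.11 (SE; n = 6 mice each, limma adjusted p = 0.000116). The other UGT2 genes were lower by smaller amounts, with log2 fold changes of -0.54 for Ugt2b5, -0.52 for Ugt2b35, -0.44 for Ugt2b38, -0.36 for Ugt2b36 and -0.20 for Ugt2a3. Ugt2b5 and Ugt2b35 showed no overlap between the groups, whereas the groups overlapped in Ugt2b36, Ugt2b38 and Ugt2a3. The call of Ugt2a3 was lost when arrays were scaled by their median (log2 fold change -0.21, adjusted p = 0.0797).

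**Figure D2:**
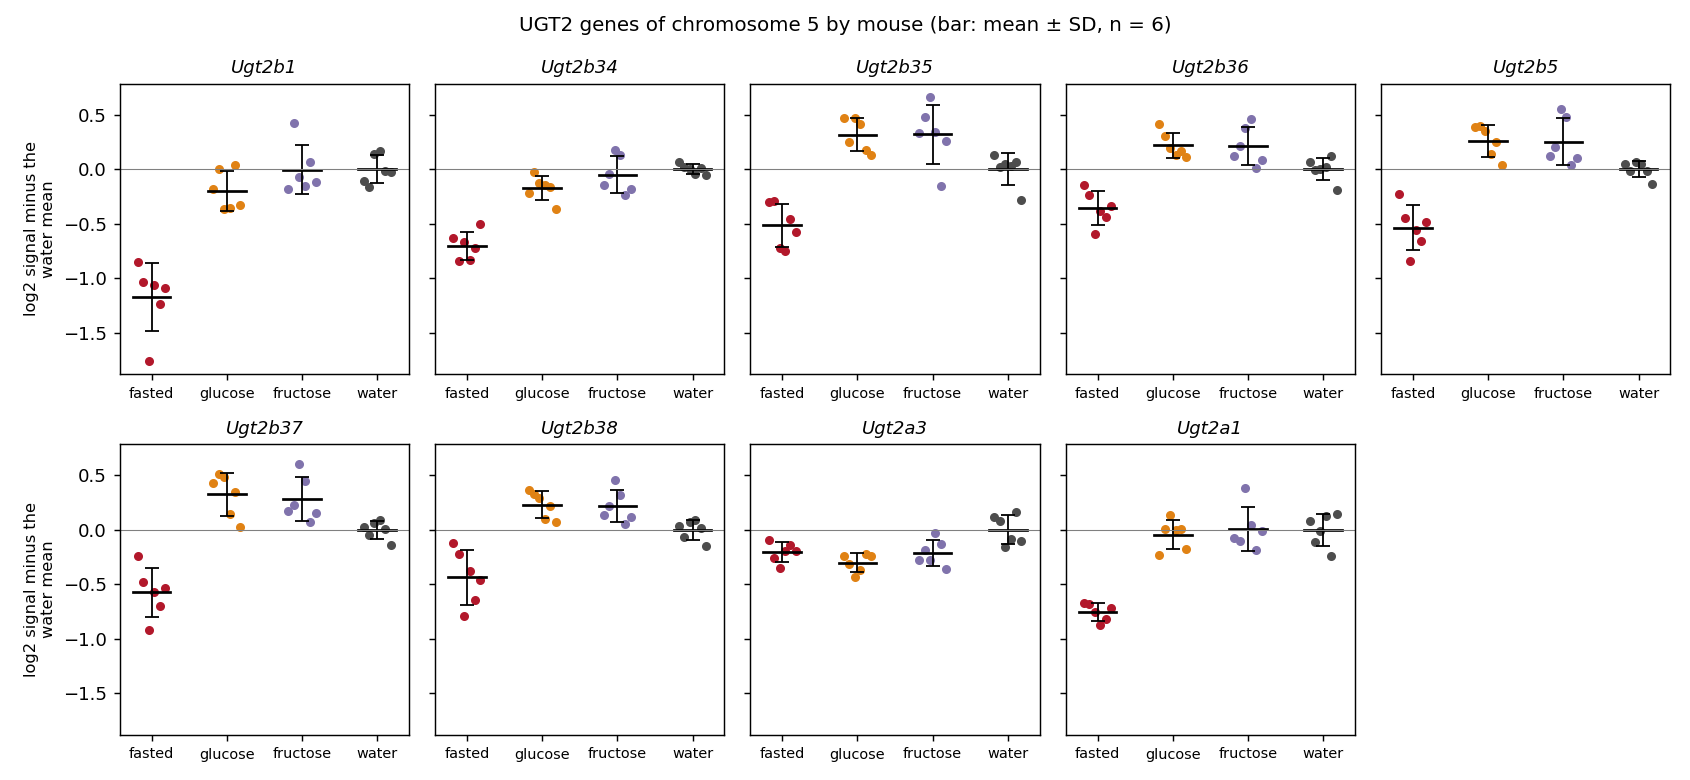
Log2 intensity of the 9 UGT2 genes minus the gene's mean in mice on water (y axis, log2 units), by mouse in the fasted, glucose, fructose and water groups; bars are mean ± SD of 6 mice. In all 9 genes the fasted mean lies below 0, and in Ugt2b5, Ugt2b35, Ugt2b36, Ugt2b37 and Ugt2b38 both sugar means lie above 0.

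The promoters of the 7 Ugt2b genes are shown because these genes fell together and share a sequence just upstream of their starts. Of the 46 members 40 had a promoter window in RefSeq (GRCm38.p6), and the 250 bases before the annotated start were searched. The 100 bases before each start are printed 5′ to 3′ on the gene's strand, Ugt2b1 at chr5:86926504-86926603, Ugt2b34 at chr5:86906938-86907037, Ugt2b36 at chr5:87092556-87092655, Ugt2b5 at chr5:87140341-87140440, Ugt2b37 at chr5:87254789-87254888 and Ugt2b38 at chr5:87424204-87424303 on the minus strand and Ugt2b35 at chr5:87000760-87000859 on the plus strand. Capitals mark the 13 bases that match GTTANANNTTAAC on either strand, a palindrome-like sequence of the kind HNF1 binds. Its letters are those all 7 promoters share around these arms, so it was chosen from the promoters shown and their matches are no finding.
Ugt2b1: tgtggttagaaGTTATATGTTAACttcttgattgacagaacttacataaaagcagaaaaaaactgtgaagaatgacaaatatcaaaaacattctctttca
Ugt2b34: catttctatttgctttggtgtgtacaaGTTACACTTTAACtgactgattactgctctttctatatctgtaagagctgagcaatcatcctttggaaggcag
Ugt2b35: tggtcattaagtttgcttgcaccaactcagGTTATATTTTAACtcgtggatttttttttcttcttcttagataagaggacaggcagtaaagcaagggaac
Ugt2b36: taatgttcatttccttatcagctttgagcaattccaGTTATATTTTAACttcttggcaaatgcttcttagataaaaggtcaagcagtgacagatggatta
Ugt2b5: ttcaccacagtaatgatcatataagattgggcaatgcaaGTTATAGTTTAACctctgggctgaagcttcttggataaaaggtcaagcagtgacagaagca
Ugt2b37: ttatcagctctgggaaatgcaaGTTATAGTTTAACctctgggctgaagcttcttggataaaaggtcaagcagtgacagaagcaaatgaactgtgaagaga
Ugt2b38: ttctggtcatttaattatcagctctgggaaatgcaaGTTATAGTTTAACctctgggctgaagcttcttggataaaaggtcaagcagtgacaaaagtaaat
The match lay between positions -89 and -49 in all 7 genes, counted back from the start. It occurred in 28 of 32851 promoter windows of all genes, 0.0852%. The 40 members had 51 windows, and 8 of these held it, those of the 7 Ugt2b genes and Ugt3a1. Ugt3a1 carried it at positions -130 to -118 and was higher, not lower, in fasted livers. In the printed stretches Ugt2b37 and Ugt2b38 were identical at 84 of 86 aligned bases, and Ugt2b1 and Ugt2b38, the least alike, at 34 of 96. The hexamer GTTAAT, an arm of the HNF1 sequence, was found on either strand in 7 members (Ugt1a10, Ugt1a6a, Ugt2a3, Ugt3a1, Sult1a1, Sult1d1 and Gsta3). These made up 7 of the 51 member windows, and the hexamer lay in 6.43% of all windows. In Ugt3a1 it overlaps the longer match. These matches are descriptions of letters in a window and not of binding.

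Close relatives in this block are read by similar probes. The 60-base probes of Ugt2b37 and Ugt2b5 matched each other at 46 of 55 aligned bases, the closest pair among the measured members. The 30 bases in the middle of the aligned stretch are shown, with the 2 bases that differ in capitals.
Ugt2b37: agcctcattctAatttatgaGccaccttct
Ugt2b5: agcctcattctTatttatgaAccaccttct
The log2 fold changes of these 2 genes in fasted livers, -0.57 and -0.54, are therefore uncertain as separate values. How much each probe takes up of the other transcript was not tested.

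The Ugt1a locus of chromosome 1 makes several enzymes from alternative first exons joined to shared last exons. The probes named for its members moved in different directions. Ugt1a6a, an enzyme for planar phenols, lay at -2.78, -2.55 and -2.26 in fasted livers against -2.24, -1.80 and -1.54 in livers of mice on water. All fasted mice lay below all mice on water, and the log2 fold change was -0.72 ± 0.12 (SE; n = 6 mice each, limma adjusted p = 4.72e-05). Ugt1a10, known in humans mainly from the gut, lay at 1.11, 1.27 and 1.40 in fasted livers and at 0.65, 0.76 and 1.12 on water. The highest mouse on water just reached the lowest fasted mouse, and the log2 fold change was 0.43 ± 0.10 (SE; n = 6 mice each, limma adjusted p = 0.00143). The brightest probe of Ugt1a6b, at chr1:90115493-90115552 (mm9), was not called in fasted livers (log2 fold change 0.10, adjusted p = 0.143). Another Ugt1a6b probe, 111 kb upstream at chr1:90004249-90004308, was called lower at -0.26 ± 0.081 on the log2 scale (SE; limma adjusted p over all probes = 0.0130). The brightest probe lies only 0.961 kb from the probe of Ugt1a6a. Whether either of these probes reads the exons that Ugt1a transcripts share was not tested. The log2 fold changes of -0.72 and 0.10 are therefore uncertain as values of Ugt1a6a alone and of Ugt1a6b alone.

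The UGT3 enzymes, which in humans use sugars other than glucuronic acid, rose modestly with fasting. Ugt3a1 lay at 6.05, 6.23 and 6.47 in fasted livers against 5.72, 5.84 and 6.10 on water, with a log2 fold change of 0.38 ± 0.082 (SE; n = 6 mice each, limma adjusted p = 0.000579). Ugt3a2 lay at 6.49, 6.72 and 6.93 in fasted livers against 6.18, 6.31 and 6.61 on water, with a log2 fold change of 0.36 ± 0.089 (SE; n = 6 mice each, limma adjusted p = 0.00181). In both genes the groups overlapped slightly, and the other passing probe of Ugt3a2 gave 0.35.

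Sulfotransferases showed the widest changes of the 3 families. In fasted livers 8 of 11 SULT genes were called, 5 higher and 3 lower, where 42.6% of all genes were called. Sult1e1, the estrogen sulfotransferase, which inactivates estrogens by sulfation, lay at 0.13, 0.86 and 2.47 in fasted livers against -2.97, -2.11 and -1.83 in livers of mice on water. Every fasted mouse lay above every mouse on water by at least 1 log2 unit, although fasted mice spread over more than 2 units. The log2 fold change was 3.35 ± 0.41 (SE; n = 6 mice each, limma adjusted p = 5.45e-07), 10.2-fold higher. Sult1d1, which sulfates catecholamines, lay at 5.27, 5.54 and 6.25 in fasted livers against 4.00, 4.42 and 4.52 on water, without overlap and with a log2 fold change of 1.35 ± 0.16 (SE; n = 6 mice each, limma adjusted p = 3.07e-07). Sult1a1, the main phenol sulfotransferase of liver, lay at 7.90, 8.06 and 8.49 in fasted livers against 6.71, 6.99 and 7.14 on water. Its groups did not overlap, with a log2 fold change of 1.19 ± 0.18 (SE; n = 6 mice each, limma adjusted p = 7.04e-06) and 1.23 by its other passing probe.

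The genes Sult1b1, Sult1d1 and Sult1e1 lie together on chromosome 5 (mm9, chr5:87943760-88005246), 54.2 kb beyond the end of the UGT2 block. All 3 were higher in fasted livers while the 9 neighbouring UGT2 genes were lower. Sult1b1, a thyroid hormone sulfotransferase, was the least certain of them, with levels of 2.61, 3.72 and 3.94 in fasted livers against 2.39, 3.07 and 3.38 on water and a log2 fold change of 0.55 ± 0.22 (SE; n = 6 mice each, limma adjusted p = 0.0441). Its groups overlapped through 1 fasted mouse, replicate 2 at 2.61, where the other fasted mice lay at 3.65 to 3.94. With 1 array left out, the log2 fold change of Sult1b1 ran from 0.43 to 0.74. Its other probe, at 0.29, was not called. The call was also lost without any of 11 single arrays (fasted replicates 1, 3, 4, 5 and 6, glucose replicates 2 and 4, and water replicates 3, 4, 5 and 6), with adjusted p between 0.0502 and 0.122. The call ended too with median scaling, with no filter on dim probes and with the mean of its probes (adjusted p of 0.0653, 0.0708 and 0.158).

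Sult1c2, a sulfotransferase of the 1C subfamily, fell most in this family. It lay at -1.40, -0.96 and -0.48 in fasted livers against 0.17, 0.82 and 1.65 in livers of mice on water. The groups stood apart and the log2 fold change was -1.81 ± 0.23 (SE; n = 6 mice each, limma adjusted p = 1.02e-06), 3.51-fold lower. Its neighbour in name, Sult1c1, did not pass the test, at -0.012 (95% interval -0.21 to 0.19).

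The Sult2a enzymes sulfate bile acids and hydroxysteroids, and the 2 that were measured moved in opposite directions. Sult2a7 lay at -0.18, 0.22 and 0.51 in fasted livers against -1.26, -0.77 and -0.51 on water, without overlap, with a log2 fold change of 1.01 ± 0.18 (SE; n = 6 mice each, limma adjusted p = 8.39e-05). Sult2a8, a bile acid sulfotransferase of mouse liver, lay at 6.72, 7.06 and 7.26 in fasted livers against 7.53, 7.65 and 7.74 on water, also without overlap, with a log2 fold change of -0.59 ± 0.12 (SE; n = 6 mice each, limma adjusted p = 0.000423). Sult2a1, Sult2a2, Sult2a3, Sult2a4, Sult2a5 and Sult2a6 were well above background on at most 1 array. Sult4a1, best known from brain, lay at -3.76, -3.52 and -3.27 in fasted livers against -3.52, -3.07 and -2.66 on water, with overlapping groups and a log2 fold change of -0.46 ± 0.18 (SE; n = 6 mice each, limma adjusted p = 0.0485). This call was lost without any of 16 single arrays (fasted replicates 3 to 6, glucose replicates 2, 3, 5 and 6, fructose replicates 1, 2, 4 and 5, and water replicates 1, 3, 4 and 6), with adjusted p between 0.051 and 0.118, and in 6 other settings. Sult5a1 did not pass the test (0.078). Sult2b1, which sulfates cholesterol, was well above background on 3 fasted, 6 glucose, 3 fructose and 4 water arrays, and its log2 fold change of -0.59 was not called (adjusted p = 0.128).

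**Figure D3:**
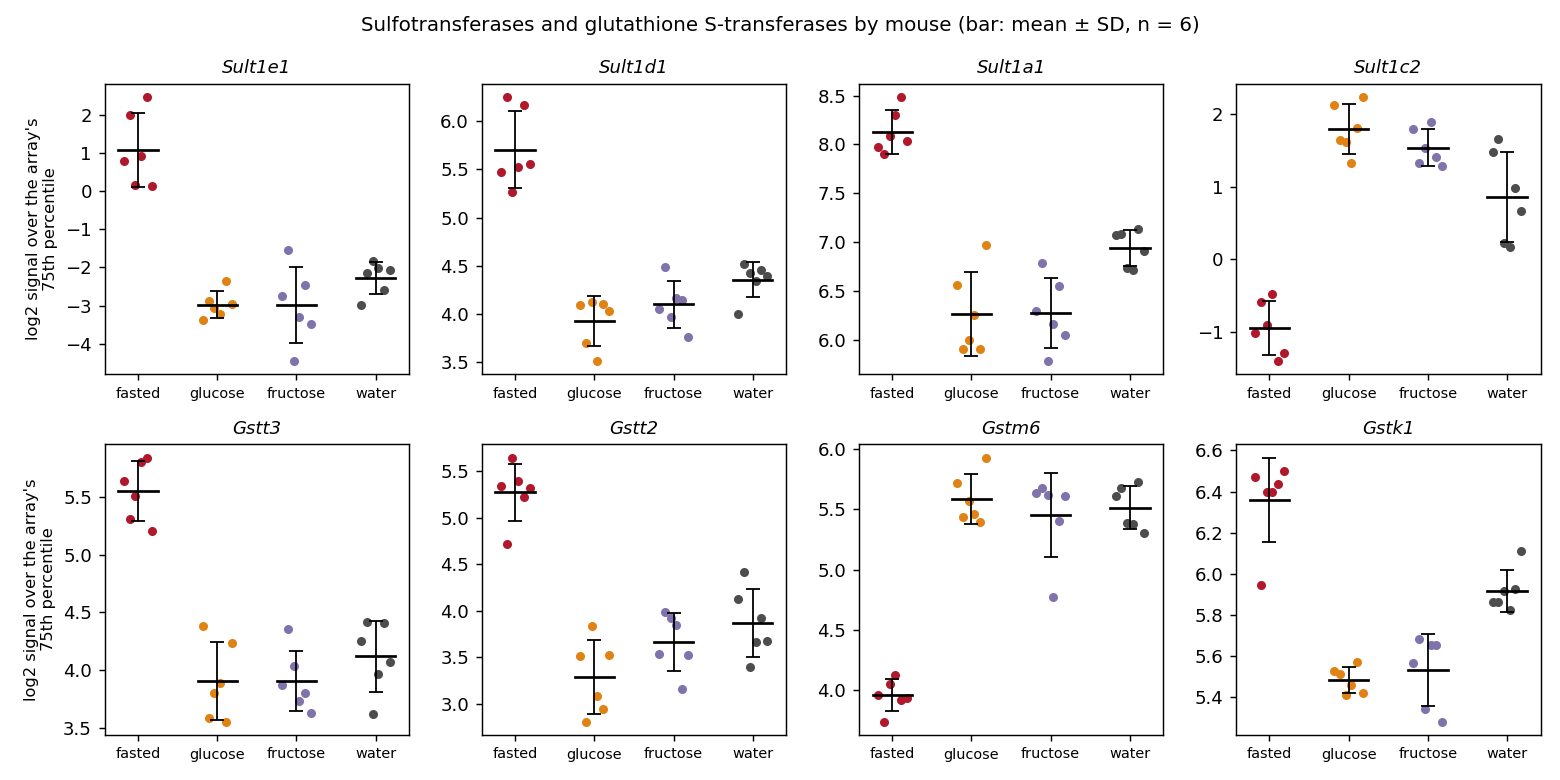
Log2 intensity relative to the array's 75th percentile (y axis) of 8 sulfotransferase and glutathione S-transferase genes, by mouse in the fasted, glucose, fructose and water groups; bars are mean ± SD of 6 mice. Fasted mice lie above all mice on water in Sult1e1, Sult1d1, Sult1a1, Gstt3 and Gstt2 and below them in Sult1c2 and Gstm6.

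In the glutathione S-transferases 14 of 21 genes were called in fasted livers, 5 higher and 9 lower, where 42.6% of all genes were called. The theta-class genes sit next to each other on chromosome 10 and moved apart. Gstt3 lay at 5.20, 5.58 and 5.84 in fasted livers against 3.61, 4.16 and 4.42 in livers of mice on water, with a log2 fold change of 1.43 ± 0.16 (SE; n = 6 mice each, limma adjusted p = 2.07e-07), 2.7-fold higher. Gstt2 lay at 4.72, 5.33 and 5.65 in fasted livers against 3.40, 3.79 and 4.42 on water, with a log2 fold change of 1.41 ± 0.19 (SE; n = 6 mice each, limma adjusted p = 2.76e-06) and 2.28 by its other passing probe. Neither gene showed overlap between the groups. Gstt1, the third member, was lower in fasted livers, with a log2 fold change of -0.44 (adjusted p = 0.000768).

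Of the 7 mu-class Gstm genes 5 were lower in fasted livers, and the other two had negative log2 fold changes that just missed the threshold. The probes of 6 of them lie in a row of 145 kb on chromosome 3 (mm9, chr3:107701511-107846847). Gstm6 lay at 3.74, 3.95 and 4.12 in fasted livers against 5.30, 5.50 and 5.73 on water, far apart, with a log2 fold change of -1.56 ± 0.13 (SE; n = 6 mice each, limma adjusted p = 1.79e-09), 2.95-fold lower. Its other probe gave a smaller fall of -0.81. Gstm4 lay at 3.24, 3.47 and 3.88 in fasted livers against 3.77, 4.07 and 4.53 on water, with a log2 fold change of -0.60 ± 0.17 (SE; n = 6 mice each, limma adjusted p = 0.00629). Gstm1, an abundant liver enzyme, lay at 6.77, 7.24 and 7.56 in fasted livers against 7.50, 7.69 and 8.17 on water, with a log2 fold change of -0.57 ± 0.15 (SE; n = 6 mice each, limma adjusted p = 0.00354). In both genes the highest fasted mouse reached into the range of the mice on water. The array design places the brightest Gstm1 probe on chromosome 5 (mm9, chr5:117082490-117082549) and the other, which gave -0.62, on chromosome 3 (chr3:107815595-107815654). Gstm3 (-0.57) and Gstm5 (-0.30) were also called. Gstm2 (-0.64, adjusted p = 0.0543) and Gstm7 (-0.38, adjusted p = 0.0529) were the pair not called. Both passed with quantile normalization, with the normexp correction, with the authors' series table, over probes detected on all 24 arrays and with slide as a block (adjusted p between 0.0328 and 0.0479). For Gstm2 the fasted and water groups did not overlap, and without fructose replicate 4, whose level of 3.26 lay apart from the other fructose mice, the adjusted p was 0.00276. Without the same array Gstm7 had an adjusted p of 0.0109. That array belongs to neither group and enters only through the shared estimate of spread. Gstm2 also passed without glucose replicate 6 (adjusted p = 0.0441) or fructose replicate 1 (0.0469), and Gstm7 without fasted replicate 5 (0.0252) or fructose replicate 2 (0.0338).

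The alpha class conjugates products of lipid peroxidation and, for Gsta3, the epoxide of aflatoxin. Gsta3 lay at 8.78, 9.03 and 9.21 in fasted livers against 9.53, 9.71 and 9.77 in livers of mice on water. No fasted mouse reached the range on water, and the log2 fold change was -0.65 ± 0.068 (SE; n = 6 mice each, limma adjusted p = 5e-08). Its 2 other probes gave -0.64 and -1.30. Gsta4, which acts on hydroxynonenal, lay at 1.38, 1.64 and 2.04 in fasted livers against 2.06, 2.33 and 2.64 on water, narrowly without overlap, with a log2 fold change of -0.72 ± 0.19 (SE; n = 6 mice each, limma adjusted p = 0.00422). Gsta2 did not pass the test (0.35, 95% interval -0.26 to 0.96).

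Of the other classes, 3 single genes were higher in fasted livers. Gstk1, the kappa-class enzyme of mitochondria and peroxisomes, lay at 5.95, 6.42 and 6.50 in fasted livers against 5.82, 5.89 and 6.11 on water. Only the lowest fasted mouse fell within the water range, and the log2 fold change was 0.44 ± 0.087 (SE; n = 6 mice each, limma adjusted p = 0.000206). Gsto1, an omega-class enzyme that can reduce dehydroascorbate, lay at 6.83, 7.04 and 7.14 in fasted livers against 6.50, 6.55 and 6.74 on water, without overlap, with a log2 fold change of 0.44 ± 0.069 (SE; n = 6 mice each, limma adjusted p = 1.7e-05). Mgst2, a microsomal enzyme able to make leukotriene C, was dim, at -3.92, -3.61 and -3.09 in fasted livers against -4.76, -3.99 and -3.77 on water. Its groups overlapped with a log2 fold change of 0.58 ± 0.17 (SE; n = 6 mice each, limma adjusted p = 0.00811), and with the normexp background correction it was 0.12 (adjusted p = 0.125). Within slide 3 alone its log2 fold change was -0.028.

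Of the pi-class members and the other microsomal genes 1 was called. Gstp1 was called lower (-0.40, adjusted p = 0.0289) but lost the call without any of 7 single arrays (fasted replicates 3, 5 and 6 and water replicates 3, 4, 5 and 6), with adjusted p between 0.0509 and 0.0829. Gstp2 was not called at -0.076, but quantile normalization gave -0.23 (adjusted p = 0.000136) and the authors' series table -0.20 (adjusted p = 0.000383). Mgst1, a bright gene, lay at 0.00617 with a 95% interval of -0.089 to 0.10, and at -0.12 after quantile normalization (adjusted p = 0.0427). Mgst3 did not pass the test (-0.14). Gsto2 was well above background on 5 fasted, 5 glucose, 4 fructose and 4 water arrays. Its log2 fold change of 0.77 was not called (adjusted p = 0.127) but passed without fasted replicate 2 (1.04, adjusted p = 0.0286). Gstt4, Sult3a1 and Sult6b1 were well above background on at most 1 array, and with the Sult2a genes named above they make up the 9 genes that were not measured. The measured members nearest to the limit were Sult2b1 on 16 arrays and Gsto2 on 18. Gstp3, which the array lists under the older name BC021614 and the name rule therefore left out, was lower in fasted livers by a log2 fold change of -1.48 ± 0.18 (SE; limma adjusted p = 4.62e-07).

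**Figure D4:**
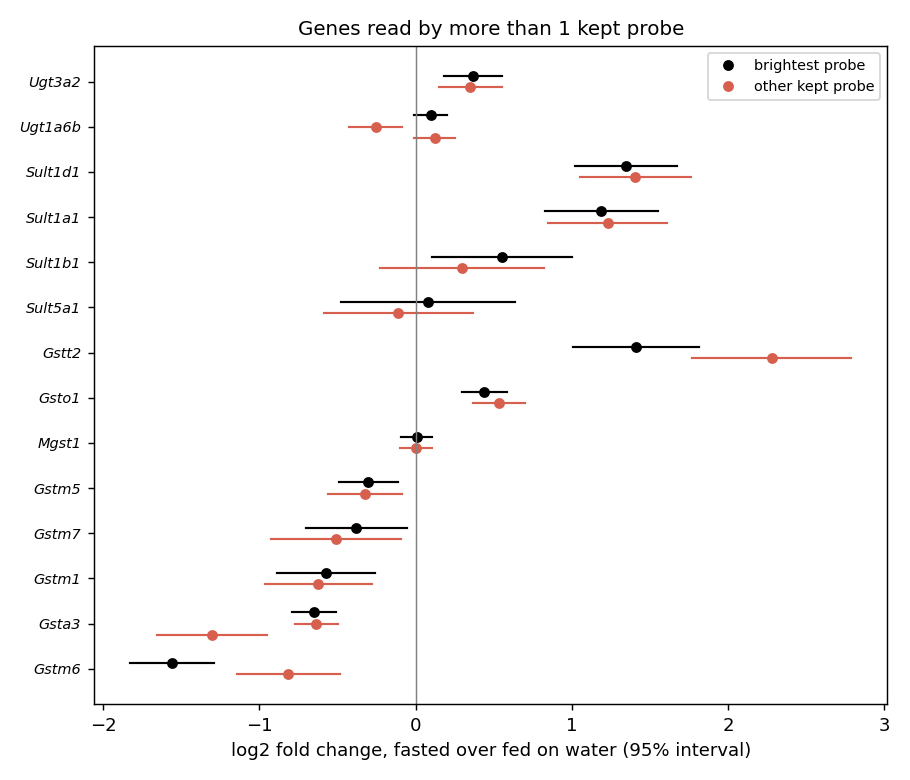
Log2 fold change in fasted livers over livers of mice on water (x axis, log2 units, with 95% intervals) for the 14 members with more than 1 passing probe, the brightest probe in black and the others in red. Probes of a gene lie close together except in Gstt2, Gsta3 and Gstm6, where sizes differ, and in Ugt1a6b and Sult5a1, where signs differ.

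A day of sugar in the drinking water changed few conjugation enzymes. With glucose 2 of 46 members were called, both lower than on water, where 0.83% of all genes were called and 0.421% were lower. With fructose 2 of 46 were called, 1 higher and 1 lower, where 0.88% of all genes were called. The groups did not overlap in 4 of 46 members with glucose (2.36% of all genes) and in 1 of 46 with fructose (1.77%). The count with glucose was 1 without glucose replicate 2, 3 or 4 or water replicate 5 and 4 without fructose replicate 2, and the count with fructose ran from 1 to 3. Gstk1 was lower with both sugars and was the only member called in opposite directions by fasting and by a sugar. Its levels were 5.41, 5.48 and 5.57 with glucose, 5.28, 5.61 and 5.68 with fructose and 5.82, 5.89 and 6.11 on water. Neither sugar group overlapped the mice on water. The log2 fold change was -0.43 ± 0.087 (SE; n = 6 mice each, limma adjusted p = 0.0153) with glucose and -0.39 ± 0.087 (SE; n = 6 mice each, limma adjusted p = 0.0379) with fructose. With median scaling neither passed (adjusted p of 0.0778 with glucose and 0.151 with fructose). The fructose call was also lost without any of 8 single arrays, fructose replicates 1, 3 and 6 and water replicates 1, 2, 4, 5 and 6, with adjusted p between 0.0536 and 0.0951, and with no filter on dim probes (0.0756).

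Ugt2a3, which in humans glucuronidates bile acids, lay at 5.66, 5.82 and 5.87 with glucose, 5.73, 5.86 and 6.06 with fructose and 5.94, 6.09 and 6.25 on water. The glucose mice all lay below the mice on water, with a log2 fold change of -0.30 ± 0.067 (SE; n = 6 mice each, limma adjusted p = 0.0296). With fructose it was -0.21 and not called (adjusted p = 0.124). The glucose call was lost with median scaling (adjusted p = 0.214), with no filter on dim probes (adjusted p = 0.0671) and without any of 6 single arrays, glucose replicates 2, 3 and 4 and water replicates 1, 2 and 5, with adjusted p between 0.0629 and 0.0768.

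Ugt1a10 was the only member higher past the test with a sugar. It lay at 1.05, 1.29 and 1.43 with glucose, 0.98, 1.44 and 1.63 with fructose and 0.65, 0.76 and 1.12 on water. With fructose the log2 fold change was 0.53 ± 0.10 (SE; n = 6 mice each, limma adjusted p = 0.0147), and with glucose 0.41, not called (adjusted p = 0.0593). The glucose value passed without fructose replicate 2, fructose replicate 3 or water replicate 3 (adjusted p of 0.0285, 0.0494 and 0.0329). It also passed with the normexp correction (0.0339), with the authors' series table (0.0384), over probes detected on all 24 arrays (0.0470) and with array weights (0.0212), so this value lies at the threshold. The median of the mice on water was the lowest of the 4 groups, fasted mice included.

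**Figure D5:**
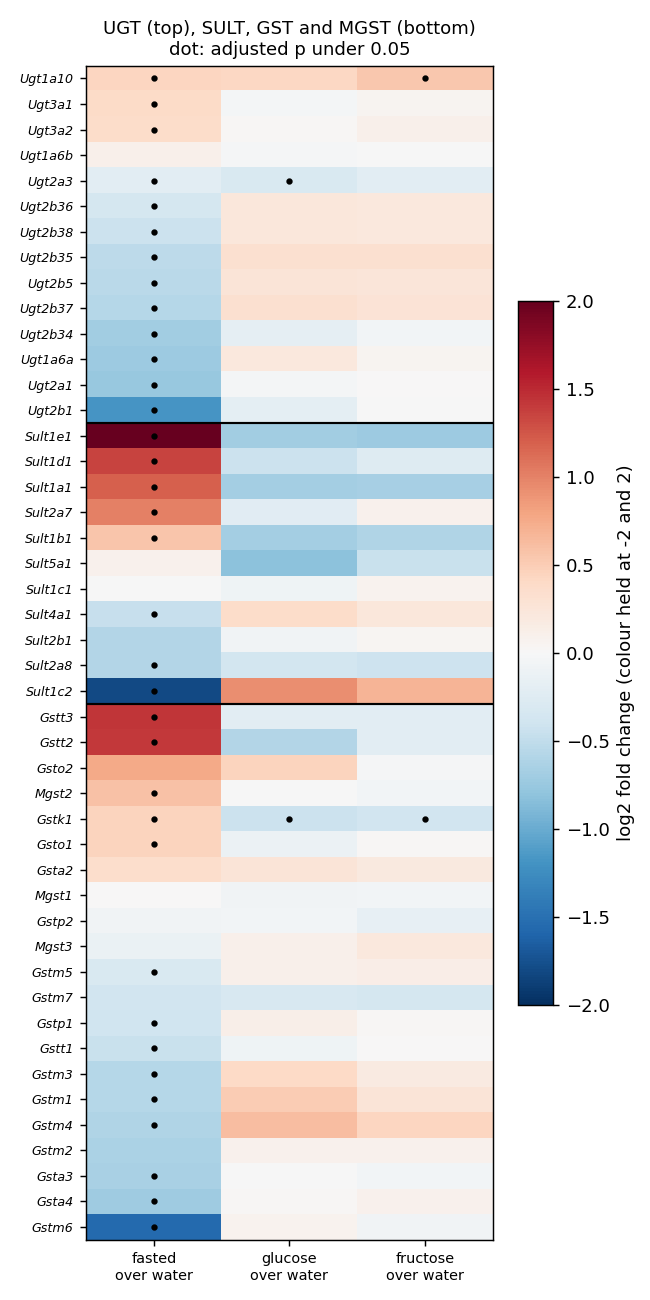
Log2 fold change (colour, held at -2 and 2) of the 46 members in fasted, glucose and fructose livers, each over livers of mice on water, with UGT genes on top, SULT genes in the middle and GST and MGST genes below; dots mark called values. The fasting column holds 35 dots, and each sugar column holds 2.

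Several other members came near the threshold with sugar without passing it. Sult1c2 lay at 1.33, 1.72 and 2.24 with glucose, 1.29, 1.47 and 1.89 with fructose and 0.17, 0.82 and 1.65 on water. Its log2 fold change was 0.93 with glucose (adjusted p = 0.0586) and 0.68 with fructose (adjusted p = 0.151), and mice on water alone spread over more than 1 log2 unit. Sult1a1 lay at 5.90, 6.12 and 6.97 with glucose, 5.78, 6.23 and 6.79 with fructose and 6.71, 6.99 and 7.14 on water. Its log2 fold change was -0.68 with glucose (adjusted p = 0.0703) and -0.67 with fructose (adjusted p = 0.0682). Without glucose replicate 6 its adjusted p was 0.0160 with glucose and 0.0408 with fructose, and without fructose replicate 2 it was 0.04995 and 0.0376. Sult1a1 also passed with both sugars under the normexp correction (adjusted p of 0.0484 with glucose and 0.0430 with fructose) and in the authors' series table (0.0483 and 0.0415), and with glucose under array weights (0.0234). Sult1c2 passed with glucose without water replicate 1 (adjusted p = 0.0366) or water replicate 2 (0.0243). It did so too with quantile normalization (0.0494), the normexp correction (0.0303), the authors' series table (0.0341), probes detected on all 24 arrays (0.0448) and array weights (0.0278). At an unadjusted p under 0.05 there were 19 of 46 members with glucose, where 11.4% of all genes passed, and 15 of 46 with fructose, where 15.9% passed. Among them with both sugars were 5 Ugt2b genes, Ugt2b5, Ugt2b35, Ugt2b36, Ugt2b37 and Ugt2b38. Their log2 fold changes lay between 0.22 and 0.32 with glucose and between 0.21 and 0.32 with fructose. Ugt2b34 went the other way with glucose (-0.18, limma unadjusted p = 0.0255) and did not pass with fructose (-0.051). Ugt2b1 passed with neither sugar (-0.20 with glucose and -0.0069 with fructose). Sult1b1 (-0.68 and -0.60) and Gstm4 (0.62 and 0.43) passed that unadjusted limit with both sugars, with the glucose value first. Sult2a8 was among them as well (-0.37 with glucose, without overlap with the mice on water, and -0.41 with fructose). These genes were not called, although Ugt2b35 passed with fructose without fructose replicate 5 (adjusted p = 0.0447), Sult1b1 passed with glucose under array weights (0.0394), and Sult2a8 passed with fructose under array weights (0.0493) or without fructose replicate 4 (0.0301). The fasting and sugar values rest on the same mice on water.

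Fructose and glucose did not differ from each other past the test in any member. Limma called 0 of 46 members and 0% of all 23966 genes, and at an unadjusted p under 0.05 there was 1 of 46 members, where 7.8% of all genes passed. That member was Gstp2, with levels of 9.35, 9.45 and 9.62 with fructose against 9.50, 9.56 and 9.69 with glucose and a log2 fold change of -0.12 ± 0.056 (SE; n = 6 mice each, limma adjusted p = 0.621). The lowest p among UGT genes was that of Ugt2b34, at 6.42, 6.55 and 6.83 with fructose and 6.29, 6.49 and 6.62 with glucose, with a log2 fold change of 0.12 (95% interval -0.028 to 0.28). Among SULT genes it was Sult2a7, at -1.17, -0.84 and 0.21 with fructose and -1.43, -0.93 and -0.86 with glucose, with a log2 fold change of 0.31 (95% interval -0.065 to 0.69). In both genes the groups overlapped. Every other setting tried also called 0 of 46 members. A test for any difference among the 4 groups called 36 of 46 members, where 46.1% of all genes were called, the 35 of fasting and Sult5a1, which lay at 1.65, 2.02 and 2.61 in fasted livers, 0.50, 1.11 and 1.69 with glucose, 0.55, 1.34 and 2.73 with fructose and 1.56, 1.89 and 2.31 on water (adjusted p = 0.0234).

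The median spread between mice was wider over the SULT genes than over either other family in each of the 4 groups, a difference that was not tested. The median SD over the UGT genes was 0.177 in fasted, 0.139 in glucose, 0.188 in fructose and 0.132 in water livers, in log2 units. Over the SULT genes it was 0.334, 0.27, 0.424 and 0.306 in the same order of groups, and over the GST and MGST genes 0.23, 0.226, 0.243 and 0.218. The widest single values were those of Sult1e1, with an SD of 0.962 in fasted and 0.993 in fructose livers.

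Companion genes were then read from lists of related function, chosen with earlier results of these data known. Their counts in fasted livers stand against 42.6% of all genes called. The lists of genes tied to the donor molecules, by supply or use, held higher and lower ones. For UDP-glucuronate, 5 of 7 genes were called in fasted livers, 2 higher and 3 lower. Slc35b1, a nucleotide transporter of the endoplasmic reticulum, lay at 3.98, 4.13 and 4.26 in fasted livers against 5.66, 5.90 and 6.01 on water, with a log2 fold change of -1.74 ± 0.091 (SE; n = 6 mice each, limma adjusted p = 1.57e-12). Its part in the supply of UDP-glucuronate was not tested. Slc35d1, which carries UDP-glucuronate into the endoplasmic reticulum, was lower as well (-0.62), as was Ugp2 (-0.56), which makes UDP-glucose. Ugdh, which oxidises UDP-glucose to UDP-glucuronate, did not pass the test (-0.17). For PAPS and sulfate, 8 of 9 genes were called, 5 higher and 3 lower. Papss1, a synthase of PAPS, lay at -0.95, -0.72 and -0.46 in fasted livers against 1.29, 1.65 and 1.79 on water, with a log2 fold change of -2.28 ± 0.10 (SE; n = 6 mice each, limma adjusted p = 1.09e-13). Its counterpart Papss2 was slightly higher (0.38), the sulfate transporter Slc26a2 was lower (-1.35) and sulfite oxidase, Suox, was higher (0.78). For glutathione, 6 of 15 genes were called, 4 higher and 2 lower. Cth, which makes cysteine from cystathionine, lay at 7.30, 8.03 and 8.24 in fasted livers against 5.41, 5.53 and 5.72 on water, with a log2 fold change of 2.32 ± 0.17 (SE; n = 6 mice each, limma adjusted p = 2.41e-10). Glutaredoxin, Glrx (1.07), and Oplah (0.96), which recycles oxoproline, were also higher, while Gclc (-0.28) and Gclm (-0.17), the subunits of the rate-limiting enzyme of glutathione synthesis, did not pass the test. With either sugar limma called 0 genes of these 3 lists. At an unadjusted p under 0.05 there were 2 of 7, 2 of 9 and 7 of 15 with glucose and 4 of 7, 2 of 9 and 5 of 15 with fructose, where 11.4% of all genes passed with glucose and 15.9% with fructose.

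Among 12 genes for transporters of conjugates 4 were higher and 4 lower in fasted livers. The sinusoidal uptake carriers Slco1a4 (2.40) and Slco1a1 (-2.03) moved in opposite directions, and the exporter Abcc3 was higher (0.90). With glucose Slco1a4 was lower (-1.29, adjusted p = 0.0196). With fructose limma called 0 of 12, and 0 passed at an unadjusted p under 0.05.

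In fasted livers each list of regulators or of their other targets held higher and lower genes. The balance differed between lists, and 14 of 15 PPARA targets were higher. Of 13 receptor and partner genes 5 were higher and 3 lower in fasted livers, among them Nr1i2, encoding PXR (0.91), Nr1i3, encoding CAR (0.76), and Nr3c1, encoding the glucocorticoid receptor (-0.71). Of 15 CAR and PXR targets 9 were higher and 2 lower, including Gadd45b (2.96), Slco1a4 (2.40) and Cyp2b9 (2.38). Of 14 NRF2 targets outside the conjugation families 5 were higher and 4 lower, with Osgin1 at -1.20, Nqo1 at 1.18 and Srxn1 at 0.99. Nfe2l2, which encodes NRF2, did not pass the test (-0.063). The core of the NRF2 element, TGACNNNGC on either strand, was found in 4 of the 51 promoter windows of 40 members and in 10.2% of all windows. The 4 windows were those of Gsta3, Gstm5, Gstm7 and Mgst1. Gsta3 and Gstm5 were lower in fasted livers, and Gstm7 and Mgst1 were not called. Of 6 AHR targets 2 were higher and 2 lower, with Cyp1a2 at -1.82. Of 15 PPARA targets, which serve mainly the burning of fatty acids, 14 were higher and 1 lower, led by Cyp4a14 (6.57).

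Sex-biased liver genes were examined because several conjugation enzymes are known to differ between male and female mice. Of 14 male-biased genes, which include the member Ugt2b38, 2 were higher and 7 lower in fasted livers, with Hsd3b5 at -5.73. Of 11 female-biased genes 8 were higher and 0 lower, with the transcription factor Cux2 at 2.89 and Cyp2b9 at 2.38. Over all genes the shares were 21.7% higher and 20.9% lower. Cux2 was well above background on at most 13 arrays, so the size of its change rests partly on arrays where it was not. In these 7 regulator and sex lists at most 3 genes of a list were called with glucose and at most 1 with fructose. Of all genes 0.83% were called with glucose and 0.88% with fructose. With glucose 3 of 15 CAR and PXR targets were lower, among them Cyp3a11 (-0.64) and Por (-0.50), and 2 of 11 female-biased genes. At an unadjusted p under 0.05 there were 9 of the 15 targets with glucose, where 11.4% of all genes passed.

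Markers of cell types were read beside these results, where 42.6% of all genes were called in fasted livers. A summed level below is the log2 of the summed intensities of a list, so its brightest genes weigh most. Of 7 general hepatocyte markers 2 were higher and 1 lower. Of 10 periportal markers 8 were higher and 1 lower in fasted livers, and the log2 of their summed intensity ran from 11.1 to 11.4 in fasted livers against 10.2 to 10.6 on water. Of 10 pericentral markers 1 was higher and 4 lower, with Cyp1a2 at -1.82 and a summed level of 10.5 to 10.7 in fasted livers against 10.3 to 10.5 on water. With glucose 1 of 10 periportal markers was higher and 3 were lower, and 1 of 10 pericentral markers was lower, where 0.83% of all genes were called. In fasted livers cholangiocyte markers were lower in 4 of 8, with a summed level of 2.24 to 3.44 in fasted livers against 3.09 to 3.67 on water. The neutrophil markers spread widely among fasted mice, with a summed level of 0.156 to 4.57 against 0.776 to 1.35 on water. Kupffer cell markers were higher in 2 of 8, endothelial markers higher in 3 and lower in 2 of 8, and stellate cell markers higher in 1 and lower in 3 of 9. Lymphocyte markers were lower in 2 of 6 and red cell markers in 1 of 4, and neutrophil markers were higher in 1 and lower in 1 of 5. Pancreatic acinar markers had 1 of 3 lower, with a summed level of 3.74 to 4.52 in fasted livers against 5.08 to 5.34 on water, while Cpa1, Prss2 and Pnlip were not measured. Intestinal markers had 2 of 4 higher and 1 lower, with Cdx2 and Muc2 not measured. Of the measured ones, Vil1 was well above background on at most 10 arrays and Cdx1 on at most 8. The part of these shifts in the changes of the conjugation enzymes was not tested.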

How the data were processed

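The authors hybridised liver RNA of 24 mice to 1-colour Agilent arrays (Cy3), and intensities were extracted with Agilent Feature Extraction 10.10.1.1, per the submitters' processing notes, which also name limma without a version. The deposited scanner files hold intensity values per spot, already background-corrected by the scanner software in the processed signal, per the file headers. The deposited series table holds log2 values whose normalization is not stated in the sources used here. It followed the log2 median signal of each array closely and was used only as an alternative.

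From the processed intensities, log2 values minus each array's 75th percentile were computed over non-control probes, outlier spots were dropped, and replicate spots were averaged. Of 56605 probes 36230 were well above background on at least 6 of 24 arrays, giving 23966 genes, each read by its brightest probe. In 46 gene values dropped as outlier spots, the fit used the remaining arrays. Group means of all 24 arrays were fitted with limma 3.58.1 in R 4.3.3, with Benjamini-Hochberg adjustment over all genes and a threshold of 0.05. The 6 mice of a group are separate animals, and their number limits the precision. The fit was also run on simulated data with independent normal noise, which checks the code and not the calls given here. Each slide held 2 arrays of each group.

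Per family and comparison, up to 5 higher and 5 lower called members with the largest change have full values, or the member with the lowest p where none was called. Other members are given by change, and companion lists by up to 3 leading genes. Those named beyond this rule, and the long HNF1-like motif, were chosen after their values were seen. The members and lists were chosen with earlier results of these data known. Alternatives covered scaling, background correction, the series table, the dim-probe filter, the probe, the slide, array weights, a block on replicate number and each array left out. Promoter sequences are from RefSeq (GRCm38.p6), and probe positions come from the array annotation (mm9).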

Additional observations from a re-analysis of the deposited data

Results flagged for a closer look

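In 11 of 184 combinations of a member and a group, 1 mouse stood apart from the other 5, the gap to its nearest neighbour exceeding Dixon's limit for 6 samples. Chance gives about 1 in 20. Levels are log2 intensities relative to the array's 75th percentile. Among fasted mice, replicate 2 was low for Sult1b1, at 2.61 against 3.65 to 3.94 in the others, and for Gstk1, at 5.95 against 6.40 to 6.50. Among glucose mice, replicate 2 was low for Gstm5, at 2.96 against 3.18 to 3.30. Among fructose mice, replicate 4 was low for Gstm2, at 3.26 against 4.98 to 5.47, and for Gstm6, at 4.77 against 5.40 to 5.68. Among mice on water, replicate 6 was low for Ugt2b35, at 0.70 against 1.00 to 1.1, low for Sult1c1, at -1.49 against -1.12 to -0.96, and high for Gstk1, at 6.11 against 5.82 to 5.92. Replicate 1 on water was low for Sult1d1, at 4.00 against 4.35 to 4.52. Replicate 5 on water was high for Gstm3, at 9.26 against 8.86 to 9.0, and for Gsto1, at 6.74 against 6.50 to 6.58.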

How the results depend on the processing

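In fasted livers the count of called members lay between 33 and 39 of 46 in the 10 settings other than single slides and single arrays left out, and 31 of the 35 calls held in all 10. Of the 35, 32 held with any array left out and 34 kept their sign in all 3 slides. The exception was Mgst2, at -0.028 in slide 3. Leaving out 1 array gave 32 to 36 members and 9528 to 10308 of all genes. Within slides 1, 2 and 3, with 2 mice a group, 19, 18 and 13 members and 4196, 4125 and 4128 genes were called. The part of the smaller number of mice in these counts was not tested. Any difference among the groups was called within slides in 22, 15 and 19 members and in 3634, 3061 and 3343 genes.

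The few sugar calls moved with most settings, and the cause was not tested. With glucose (2 members, 199 genes), median scaling gave 0 and 90, no dim-probe filter 1 and 120, and array weights 6 and 524. Members numbered 5 with normexp, 5 with the authors' series table and 4 over probes detected on all 24 arrays. With fructose (2 members, 211 genes), median scaling gave 1 and 75, no dim-probe filter 1 and 79, while genes numbered 631 with normexp, 373 with the series table and 400 with array weights. Within each slide both sugars gave 0 members and 0 genes. Leaving out 1 array gave 1 to 4 members and 107 to 290 genes with glucose, where glucose replicates 1, 2, 4 and 6 and water replicates 2, 4 and 5 brought the genes to 130 or fewer. It gave 1 to 3 members and 65 to 446 genes with fructose. The genes fell to 139 without glucose replicate 4, to 72 without fructose replicate 1 or 3, to 70 without fructose replicate 6, and to 123, 101, 65 and 77 without water replicates 1, 2, 4 and 6. They numbered 446 without fasted replicate 2 and 413 without fructose replicate 4. Members called with fructose were 1 without fructose replicate 1, 3 or 6 or water replicate 1, 2, 4, 5 or 6. Fructose against glucose (0 genes) gave 4 with normexp, 1 with no filter, 1 over probes detected on all 24 arrays, 2 with the mean of probes, 6 with array weights and 0 to 3 with 1 array left out, 3 without glucose replicate 3.

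Mice of different groups share only a replicate number. Over 36 same-numbered pairs the deviations from the group means correlated at 0.0334 on average (-0.173 to 0.22), with 9 pairs over 0.1. A replicate block gave 33 members in fasted livers, 3 with glucose, 1 with fructose and 0 for fructose against glucose, and 10168, 170, 167 and 0 genes. It ended the calls of Sult1b1 (adjusted p = 0.0513) and Sult4a1 (0.0739) in fasted livers and of Gstk1 with fructose (0.0604), and it added that of Ugt1a10 with glucose (0.0302). Sult2b1 and Gsto2 were not well above background on every array.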
